A study of Mus musculus with 2 samples.

Results

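Cycling T cells are T lymphocytes caught while copying their DNA or dividing. Among CD45+ immune cells sorted from the mouse cecum, 102 of 19571 cells fell into this class, drawn from 11442 T cells. A cell counted as a cycling T cell when it held at least 1 UMI (unique molecular identifier, a tag that counts 1 captured RNA molecule) of Mki67, at least 1 of Top2a, at least 2 of Cd3e, Cd3d and Cd3g together, and none of the B cell gene Cd79a or the macrophage gene Csf1r. The class was thus chosen on measured RNA of the same libraries, so the genes used in the choice, and cell cycle genes that go with them, are described here and not tested.

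The study asked what becomes of immune cells of the cecum when neurons that carry Trpv1, the capsaicin-gated channel of pain-sensing neurons, are activated. Trpv1-ADC mice were compared with CTRL littermates, 2 male mice each, 101 days old. Both Trpv1-Cre.B6 and Trpv1-WT.B6 appear as strain in the labels, with no mouse tied to either. The labels also give a neonatal intraperitoneal injection of AAV, a viral gene carrier, and 7 injections of CNO, the ligand of designer receptors, on alternate days, without saying whether every mouse got both. Each mouse carried its own DNA-coded anti-CD45 hashtag and all 4 went through 1 droplet run, whose chemistry the labels give both as 5' and as 3'. The sorted cells do not include the neurons, so the activation itself was not measured in these libraries. Trpv1-ADC 1 and 2 gave 21 and 25 cycling T cells with 298552 and 564183 UMIs in sum, and CTRL 1 and 2 gave 26 and 30 with 441814 and 549673. Where 2 values stand for a group below, the first is of mouse 1 and the second of mouse 2.

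A dividing T cell moves through a growth phase, S phase, in which DNA is copied and new histones are made to pack it, and mitosis, in which kinases, cyclins and the spindle part the chromosomes. E2F factors drive the S phase genes, while the MuvB complex with MYBL2 or FOXM1 drives the mitotic ones, often through CCAAT boxes and a cell cycle homology region (CHR) in the promoter. In the gut, most effector and memory T cells rest, and division is a sign of recent stimulation by antigen or cytokines in conventional and regulatory T cells alike.

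The 3 markers that chose the cells stood well over their limits in most of them. The median cycling T cell held 6.5 UMIs of Mki67, a nuclear protein that coats mitotic chromosomes, 11 of Top2a, the topoisomerase that untangles DNA, and 15.5 of the Cd3 genes, and the highest cell held 47, 49 and 65. At the lower limit stood 15 cells with 1 UMI each of Mki67 and Top2a, 3 and 3 from Trpv1-ADC mice and 3 and 6 from CTRL mice, while 77 cells held at least 2 of both. Just outside it, 196 T cells held Mki67 without Top2a and 506 held Top2a without Mki67. Birc5, a survivin that guides chromosome segregation and had no part in the choice, had a UMI in 68.6% of cycling T cells (58.7% to 77.5%, exact Clopper-Pearson 95% interval, which covers counting error only here and below), against 0.617% (0.482% to 0.779%) of the 11340 other T cells. B cells that did not cycle, a class that gives the background, had a Birc5 UMI in 0.800%. The median depth was 15378 UMIs in cycling T cells, 5872.5 in other T cells and 4459 in those B cells, and with every cell thinned to 2000 UMIs the Birc5 shares were 36.3%, 0.124% and 0.339%.

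Not every cell that met the rule carried a broad division programme. UMIs of the 36 genes of a DNA replication list and 55 genes of a mitosis list were added per cell, and 17 of the 102 cells held fewer than 20 per 10000 UMIs, 4 and 3 in Trpv1-ADC mice and 4 and 6 in CTRL mice. The median cycling T cell held 107 per 10000, against 13.1 in other T cells, and 8 cells lay within 5 of that limit. None of the 17 had a Birc5 UMI, but Birc5 is in the mitosis list, so its absence is in part set by the limit. Of the 17, 13 were among the 15 cells with 1 UMI each of Mki67 and Top2a.

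Cycling T cells also carried RNA of other cell types. Of the 102 cells, 21 held at least 10 UMIs of 1 of 9 marker lists of other types, 5 and 6 in Trpv1-ADC mice and 5 and 5 in CTRL mice, a share of 20.6% against 6.07% of other T cells. Stromal and endothelial markers such as Col1a1 and Pdgfra accounted for 12 of these (4 and 3 in Trpv1-ADC mice, 2 and 3 in CTRL mice), with at most 188 UMIs in a cell. Epithelial markers such as Epcam and Krt8 accounted for 4 (0 and 2 in Trpv1-ADC mice, 0 and 2 in CTRL mice), with at most 550. The limit of 10 UMIs was not scaled to depth, whose median was 15378 UMIs in cycling and 5872.5 in other T cells. The shares of 20.6% and 6.07% thus do not compare such RNA at equal depth. Per UMI, the summed stromal and endothelial list had a mean log2 ratio of -0.60 in cycling over other T cells. Of the 9 lists, only the epithelial and dendritic cell lists had a mean ratio above 0. Scrublet, a doublet caller, marked 16 of the 102 cells, and 6 of the 21. Results that rest on these cells are given below with and without them.

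Cycling T cells held more RNA of genes of mitosis, of DNA replication and of histone supply than other T cells. Of 3439 genes with a mean of at least 50 CPM (counts per 1000000 UMIs) over the summed cycling and other T cells of the 4 mice, 161 were at least 2-fold higher in cycling T cells of every mouse (4.68%) and 33 at least 2-fold lower (0.96%), with 1 CPM added to each value. These ratios are descriptions, since the choice of cells used the same measurement. The median gene had a log2 ratio of -0.05.

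Among the genes that copy DNA, Pclaf, a partner of the sliding clamp PCNA, had the largest mean log2 ratio of all, 7.55 ± 0.25 (SD over 4 mice). It stood at 348 and 519 CPM in cycling T cells of Trpv1-ADC mice and at 471 and 471 CPM in those of CTRL mice, against 1.16 and 1.62 CPM in other T cells of Trpv1-ADC mice and 1.03 and 1.87 CPM in those of CTRL mice. Every mouse thus showed it in cycling T cells at a level that other T cells came nowhere near. Of the 18 DNA replication genes above 50 CPM, 17 were at least 2-fold higher in every mouse and none lower, with a median log2 ratio of 2.99. Rrm2, a subunit of the reductase that makes deoxynucleotides, had a log2 ratio of 5.39 ± 0.44, Uhrf1, which carries DNA methylation over to the new strand, 5.00 ± 0.43, and Tyms, which makes thymidylate, 4.22 ± 0.35. Mcm5, part of the replicative helicase, had 3.42 ± 0.41. Pcna, also used in DNA repair, had a smaller ratio of 1.49 ± 0.28, with other T cells at 143 and 162 CPM in Trpv1-ADC mice and at 155 and 161 CPM in CTRL mice.

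The mitosis list was higher still, with 26 of 29 genes above 50 CPM at least 2-fold higher in every mouse, none lower and a median log2 ratio of 5.14. Ube2c, which supplies ubiquitin to the complex that ends mitosis, stood at 312 and 305 CPM in cycling T cells of Trpv1-ADC mice and at 115 and 375 CPM in those of CTRL mice. It was below 2 CPM in other T cells of every mouse, so its log2 ratio was 7.03 ± 0.69. Ccna2, the cyclin of S phase and early mitosis, had a log2 ratio of 6.36 ± 0.19, Ccnb2, a mitotic cyclin, 5.82 ± 0.31, and Cdk1, their kinase, 5.73 ± 0.51. The kinesin Cenpe had 5.42 ± 0.24 and the spindle factor Tpx2 6.0 ± 0.47. Cdc20, which activates the ubiquitin complex late in mitosis, varied more between mice, at 104 and 44.3 CPM in Trpv1-ADC mice and 22.6 and 61.9 CPM in CTRL mice, and its log2 ratio was 4.06 ± 1.00.

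Histone genes of S phase followed, with 9 of 11 genes for histones and chromatin packaging at least 2-fold higher in every mouse and a median log2 ratio of 2.57. The linker histone H1f5 had a log2 ratio of 7.13 ± 0.86, the core histone H2ac8 6.26 ± 0.67 and Hist1h2ap 5.97 ± 0.46. Histone genes of 1 family are near-identical copies, so the split of UMIs among them is uncertain. Hmgb2, which bends DNA in chromatin, stood at 3092 and 2877 CPM in cycling T cells of Trpv1-ADC mice and at 2352 and 2876 CPM in those of CTRL mice, a log2 ratio of 3.04 ± 0.28. Condensin genes Smc2 and Ncapd2, which fold mitotic chromosomes, had 3.79 ± 0.24 and 3.53 ± 0.22, and the repair gene Brca1 had 4.44 ± 0.41.

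**Figure D1:**
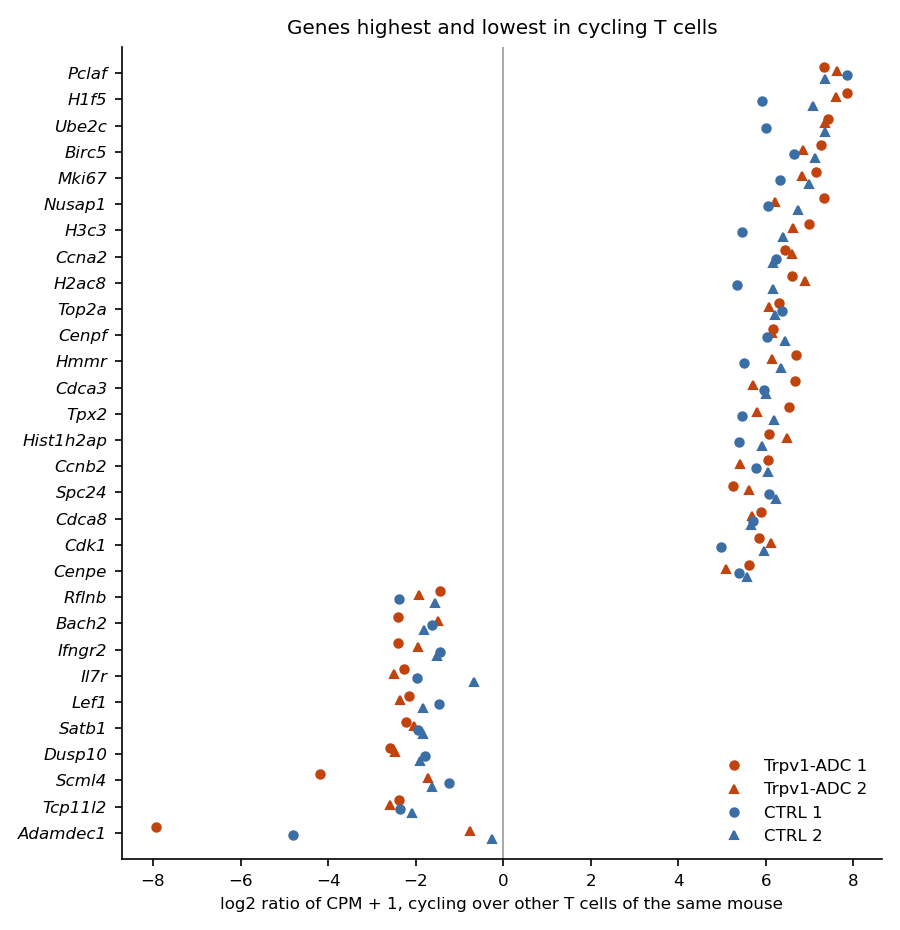
Log2 ratio of CPM plus 1 in cycling over other T cells of the same mouse, for the 20 genes with the highest and the 10 with the lowest mean ratio among genes above 50 CPM with 1 sign in all 4 mice. Points are mice, orange for Trpv1-ADC and blue for CTRL. Pclaf leads at a mean of 7.55, and Adamdec1, at the foot, has a spread of 3.62 (SD) over mice.

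The regulators of these genes were part of the pattern. Mybl2, which joins MuvB to start the mitotic programme, had a log2 ratio of 4.00 ± 0.36, Foxm1, its later partner, 4.13 ± 0.63, and E2f1 3.22 ± 0.77. Their levels were low, at 30.1 and 28.4 CPM of Mybl2 in Trpv1-ADC mice and 47.5 and 30.9 CPM in CTRL mice, and none of the 3 reached a mean of 50 CPM. Of the growth genes, Cdk4, the kinase that opens the cycle, had 1.52 ± 0.24, while the cyclins that pair with it, Ccnd2 and Ccnd3, were at -0.56 ± 0.26 and -0.81 ± 0.27.

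The promoters of 4 genes among the 20 highest are shown because they hold the letters through which MuvB complexes are known to act. CCAAT boxes (CCAAT, or ATTGG on the other strand) and the CHR letters (TTTGAA, or TTCAAA on the other strand) are in capitals, and no match of one overlaps the other in these 4. The sequences are from RefSeq on GRCm38.p6, from 250 bases before the start of the gene to 50 bases after it, 5' to 3' on the strand of the gene. Mki67 lies at chr7:135716330-135716629, Top2a at chr11:99024140-99024439, Ccnb2 at chr9:70421505-70421804 and Cdk1 at chr10:69352863-69353162, all on the minus strand.
Mki67: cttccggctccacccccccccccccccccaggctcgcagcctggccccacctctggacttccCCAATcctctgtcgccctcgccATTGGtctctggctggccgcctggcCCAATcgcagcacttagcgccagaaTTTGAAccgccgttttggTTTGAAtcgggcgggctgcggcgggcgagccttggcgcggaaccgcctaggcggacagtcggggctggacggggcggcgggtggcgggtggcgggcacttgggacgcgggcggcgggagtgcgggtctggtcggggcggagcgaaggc
Top2a: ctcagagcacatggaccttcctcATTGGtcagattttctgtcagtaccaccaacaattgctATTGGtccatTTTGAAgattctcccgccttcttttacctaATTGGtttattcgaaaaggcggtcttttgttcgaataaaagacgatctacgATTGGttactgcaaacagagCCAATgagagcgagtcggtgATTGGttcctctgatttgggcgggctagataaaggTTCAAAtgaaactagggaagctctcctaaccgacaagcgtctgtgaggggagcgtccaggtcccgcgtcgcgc
Ccnb2: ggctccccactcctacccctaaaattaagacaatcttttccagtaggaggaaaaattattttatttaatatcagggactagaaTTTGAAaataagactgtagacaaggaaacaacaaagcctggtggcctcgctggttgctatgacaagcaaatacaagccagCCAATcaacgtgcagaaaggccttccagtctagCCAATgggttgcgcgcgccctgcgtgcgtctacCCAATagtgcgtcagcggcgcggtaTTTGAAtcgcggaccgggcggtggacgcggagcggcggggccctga
Cdk1: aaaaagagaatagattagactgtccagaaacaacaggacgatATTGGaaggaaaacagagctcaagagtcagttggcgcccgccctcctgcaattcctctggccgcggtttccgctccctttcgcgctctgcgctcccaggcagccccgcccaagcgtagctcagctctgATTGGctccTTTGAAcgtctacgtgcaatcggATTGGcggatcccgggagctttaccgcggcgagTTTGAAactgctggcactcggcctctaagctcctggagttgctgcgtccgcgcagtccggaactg

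Top2a held 6 CCAAT boxes and 2 CHR matches, and Mki67, Ccnb2 and Cdk1 each 3 and 2. In Ccnb2 the CCAAT boxes started 33 and 33 bases apart, and the pair nearest the start in Cdk1 32 bases apart. Of the 20 highest genes, 16 had a RefSeq promoter, and 13 of those (81.2%) held at least 2 CCAAT boxes, 12 (75%) at least 1 CHR match and 12 (75%) both. The same letters stood in 12.2%, 18.1% and 2.19% of all 27025 promoters of the same length. Of the 8 promoters known among the 10 lowest genes, 1 held at least 2 CCAAT boxes, 1 a CHR match and 0 both. Birc5 and Nusap1, both high in cycling T cells, held neither in this window. Mki67 and Top2a, which chose the cells, are among the 16, and the other genes were ranked in cells chosen on them. The shares are thus a description and no test. These are matches of letters, not measured sites.

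Cells caught in replication and cells caught in mitosis were both present in each mouse. The mitosis list outweighed the replication list in 61 of 102 cells, 15 of 21 and 13 of 25 in Trpv1-ADC mice, and 15 of 26 and 18 of 30 in CTRL mice. Their shares were 71.4% and 52.0% in Trpv1-ADC mice and 57.7% and 60.0% in CTRL mice, so the groups overlapped. The median cell held 25.3 and 41.5 replication UMIs per 10000 in Trpv1-ADC mice and 43.5 and 33.3 in CTRL mice, and 70.3 and 55.4 mitosis UMIs per 10000 in Trpv1-ADC mice and 49.3 and 66.0 in CTRL mice. Ccnb1, the cyclin of mitotic entry, had a UMI in 42 of the 102 cells and Aurkb, a kinase of chromosome segregation, in 46, against 0.450% and 0.132% of other T cells.

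**Figure D2:**
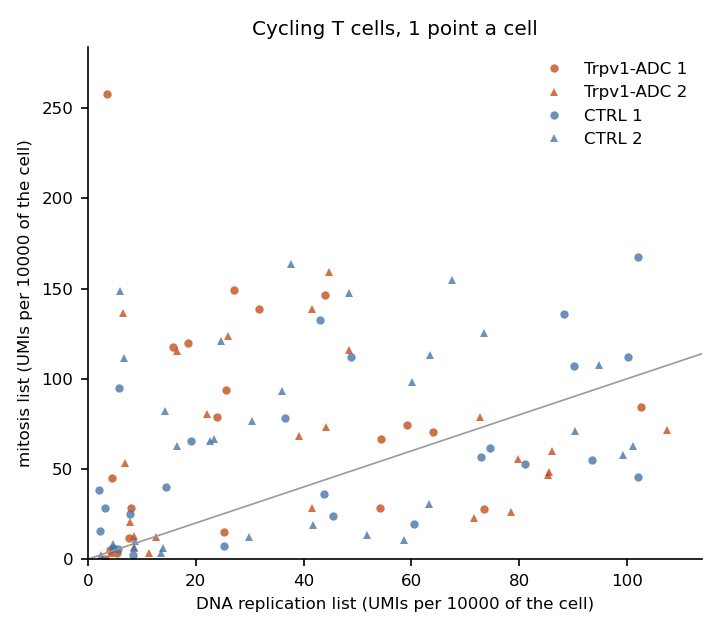
Each point is 1 cycling T cell, with UMIs of the DNA replication list per 10000 UMIs of the cell on the x axis and of the mitosis list on the y axis, orange for Trpv1-ADC and blue for CTRL mice. The grey line marks equal values; 61 of 102 cells lie above it, and the 17 cells with fewer than 20 per 10000 in sum lie near the origin.

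Outside the cell cycle, cycling T cells held less RNA of genes of naive and resting T cells. Of 13 naive and stem-like genes above 50 CPM, 4 were at least 2-fold lower in every mouse (0.96% of all genes were) and none higher, with a median log2 ratio of -1.12. Satb1, a chromatin organiser of thymic and naive T cells, stood at 301 and 314 CPM in cycling T cells of Trpv1-ADC mice and 387 and 346 CPM in those of CTRL mice. Other T cells held 1404 and 1283 CPM in Trpv1-ADC mice and 1491 and 1238 CPM in CTRL mice, a log2 ratio of -2.01 ± 0.16. Lef1, a transcription factor of naive T cells, had -1.95 ± 0.39, S1pr1, the receptor that lets T cells leave tissue, -1.79 ± 0.46, and Bach2, which restrains effector genes, -1.83 ± 0.41.

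The apoptosis list went both ways. Of 8 apoptosis genes above 50 CPM, 1 was at least 2-fold higher in every mouse and 1 at least 2-fold lower, Bcl2, with a median log2 ratio of 0.01. Bcl2, which blocks apoptosis, stood at 174 and 181 CPM in cycling T cells of Trpv1-ADC mice and at 172 and 146 CPM in those of CTRL mice, with a log2 ratio to other T cells of -1.65 ± 0.21. Il7r, the receptor for the survival cytokine interleukin 7, had -1.85 ± 0.81, and the quiescence genes Btg1 and Klf2 -1.21 ± 0.22 and -1.13 ± 0.46. None of 11 quiescence genes above 50 CPM was 2-fold lower in every mouse, and their median was -0.55. Adamdec1, a protease gene of gut macrophages and stroma, had the lowest mean ratio, -3.44 ± 3.62, but at 0 and 121 CPM in cycling T cells of Trpv1-ADC mice and 11.3 and 329 CPM in those of CTRL mice it was uneven.

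Some glycolysis genes had more RNA in cycling T cells. Of 13 glycolysis genes above 50 CPM, 3 were at least 2-fold higher in every mouse (4.68% of all genes were), with a median log2 ratio of 0.61. Gapdh had 1.31 ± 0.13, Tpi1 1.75 ± 0.29 and Pgam1 1.43 ± 0.36. The depth of cycling T cells was more than 2-fold that of other T cells, and against the 1211 other T cells with at least 10000 UMIs the same 3 genes had log2 ratios of 0.98, 1.04 and 0.82, with Tpi1 alone at over 2-fold. Against those deep cells Satb1 had -1.34, Lef1 -1.17 and Bcl2 -1.08, and Mki67 still 6.40.

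T cell identity genes had ratios near 0. None of 10 T cell markers that the rule left out, such as Trac and Lck, was 2-fold higher or lower in every mouse, and their median log2 ratio was 0.06. Nor was any of 13 regulatory T cell genes (median 0.10) or 13 cytotoxic and intraepithelial genes (median -0.46). Cycling B cells, 31 in all by the same cycle genes, gave a second dividing class: over them, cycling T cells had a mean log2 ratio of -0.26 for Mki67, 0.34 for Birc5 and -0.44 for Pclaf, and 6.97 for Trac. The small number of cycling B cells limits the precision of these ratios.

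**Figure D3:**
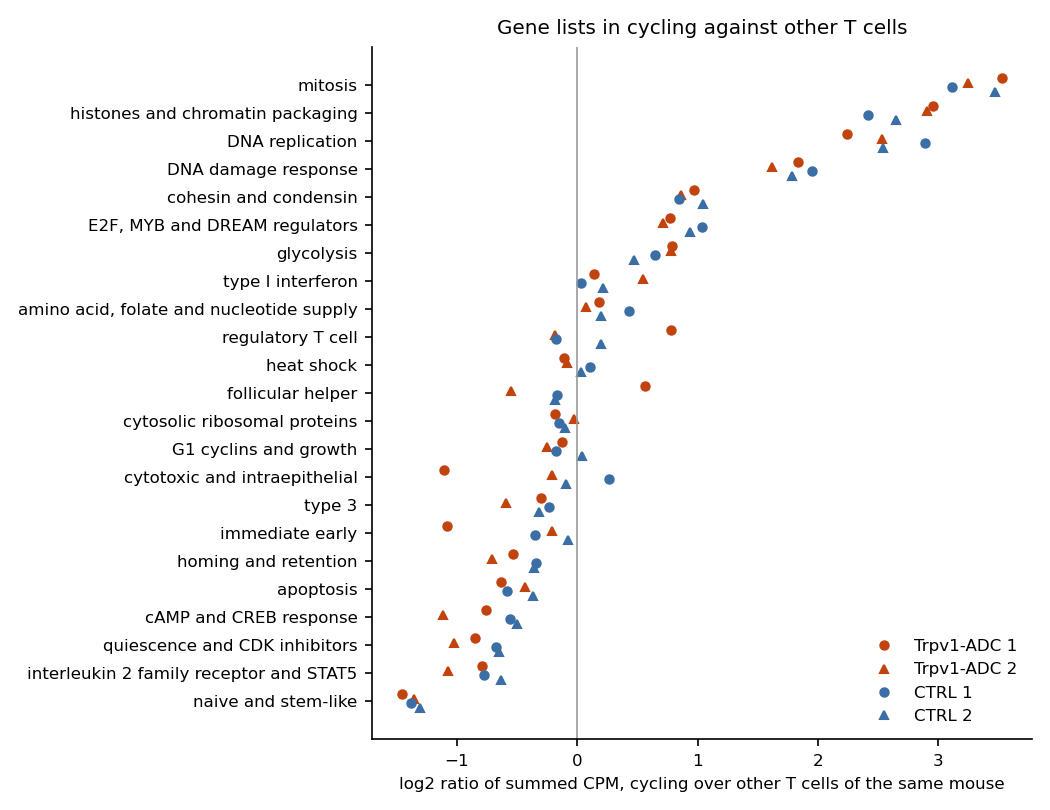
Log2 ratio of the summed CPM of each gene list in cycling over other T cells of the same mouse, orange for Trpv1-ADC and blue for CTRL. The mitosis list lies at 3.11 to 3.53 and the naive list at -1.45 to -1.30. The cytotoxic list is at -1.11 and -0.21 in Trpv1-ADC mice and at 0.26 and -0.09 in CTRL mice.

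Cycling cells formed a smaller share of T cells in both Trpv1-ADC mice than in either CTRL mouse. They were 0.735% (0.456% to 1.12%) and 0.774% (0.501% to 1.14%) of T cells in Trpv1-ADC mice, against 0.956% (0.625% to 1.40%) and 1.14% (0.769% to 1.62%) in CTRL mice. The means were 0.755% ± 0.0274 and 1.05% ± 0.129 (SD, n = 2 each), a difference of -0.292 percentage points. The groups did not overlap, but the counting intervals of all 4 mice did, and an exact two-sided permutation test gave p = 0.333, the smallest that 2 against 2 mice allow. Of all assigned cells they were 0.441% and 0.496% in Trpv1-ADC mice and 0.508% and 0.645% in CTRL mice (exact two-sided permutation p = 0.333). For this share the groups overlapped when the top hashtag had to be 5 times the next (0.459% and 0.511% against 0.452% and 0.633%). They also overlapped with at least 2 UMIs of Mki67 and Top2a (0.336% and 0.417% against 0.352% and 0.473%). The same held with stricter cell limits, a looser Cd79a and Csf1r limit, and thinned cells.

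The counts turn on which cells are kept out. Another 44 cells met the limits for Mki67, Top2a and Cd3 but had a UMI of Cd79a or Csf1r, 14 and 13 in Trpv1-ADC mice and 9 and 8 in CTRL mice, with a median of 18408 UMIs. With them the counts were 35 and 38 in Trpv1-ADC mice and 35 and 38 in CTRL mice. Without the 21 cells that held markers of other types, the shares were 0.590% and 0.623% of T cells in Trpv1-ADC mice and 0.840% and 1.01% in CTRL mice. With every cell thinned to 2000 UMIs before the rule, only 28 cells met it and the groups overlapped, at 0.449% and 0.0924% in Trpv1-ADC mice and 0.313% and 0.577% in CTRL mice.

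By UMIs of Cd4, Cd8a, Cd8b1, Trdc and Foxp3, cycling T cells were a mix of lineages. Of the 102 cells, 29 were CD4 cells without Foxp3, 9 CD4 cells with Foxp3, the factor that defines regulatory T cells, 22 CD8 alpha beta cells, 4 gamma delta cells and 3 of CD8 alpha alpha type, and 35 were left unassigned. A CD8 alpha beta cell held Cd8b1 and no Cd4, a gamma delta cell Trdc and neither Cd4 nor Cd8b1, a CD8 alpha alpha type cell Cd8a and none of the other 3 genes of CD4, CD8 beta and delta chains, and a CD4 cell Cd4 and no Cd8 gene. Of the unassigned, 15 had neither a Cd4 nor a Cd8 UMI and 20 had both, and 8 had a Foxp3 UMI. Among T cells of each lineage, 1.65% of CD4 Foxp3 cells were cycling (0.758% to 3.11%), 1.00% of other CD4 cells (0.670% to 1.43%), 0.752% of CD8 alpha beta cells (0.472% to 1.14%), 0.503% of gamma delta cells (0.137% to 1.28%) and 0.462% of CD8 alpha alpha type cells (0.0953% to 1.34%). The intervals overlap. Depth enters here: a Foxp3 UMI was found in 17.6% of cycling T cells against 8.65% of other T cells and 0.547% of B cells, and in 5.88%, 4.75% and 0.170% with every cell thinned to 2000 UMIs.

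Trdc, the constant region of the delta chain and a mark of gamma delta T cells, was not detected in cycling T cells of Trpv1-ADC mice. No cycling T cell of 46 in Trpv1-ADC mice had a Trdc UMI, so that up to 6.52% of such cells could hold one by 3 counts of the total, and up to 7.71% by the exact interval, against 4 of 26 and 7 of 30 in CTRL mice (19.6% of 56, 10.2% to 32.4%). Of the 11 CTRL cells with a Trdc UMI, 4 met the gamma delta rule, and the others also held Cd4 or Cd8b1. The absence in Trpv1-ADC mice holds for cells without a Cd79a or Csf1r UMI, and a looser limit is given below. Other T cells had a Trdc UMI in 6.75% in Trpv1-ADC mice and 11.9% in CTRL mice. The groups did not overlap in either class (exact two-sided permutation p = 0.333 for both, the smallest possible). Cd8a, the alpha chain of CD8, had a UMI in 3 of 21 and 8 of 25 cycling T cells of Trpv1-ADC mice, against 13 of 26 and 14 of 30 in CTRL mice, which did not overlap (p = 0.333 by the same exact permutation test). The Cd8a shares of other T cells were 27.5% in Trpv1-ADC mice and 27.0% in CTRL mice.

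CD4 cells without Foxp3 made up 38.1% and 44% of cycling T cells in Trpv1-ADC mice (8 of 21 and 11 of 25), against 23.1% and 13.3% in CTRL mice (6 of 26 and 4 of 30). The groups did not overlap, and the difference of means was 22.8 percentage points (exact two-sided permutation p = 0.333, 0.667 after the Benjamini-Hochberg adjustment over 6 lineage classes). The same class made up 29.6% and 25.4% of other T cells in Trpv1-ADC mice, against 21.6% and 24.4% in CTRL mice. Within the class, the share that cycled overlapped between the groups. It was 0.945% and 1.33% in Trpv1-ADC mice and 1.02% and 0.626% in CTRL mice. CD4 Foxp3 cells numbered 3 and 0 in Trpv1-ADC mice and 1 and 5 in CTRL mice, which overlap. CD8 alpha beta cells, at 2 and 6 in Trpv1-ADC mice and 6 and 8 in CTRL mice, overlapped as a share of cycling T cells, with 9.52% and 24% in Trpv1-ADC mice and 23.1% and 26.7% in CTRL mice. Gamma delta and CD8 alpha alpha type cells were 0 and 0 in Trpv1-ADC mice, against 2 and 2 and 2 and 1 in CTRL mice.

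**Figure D4:**
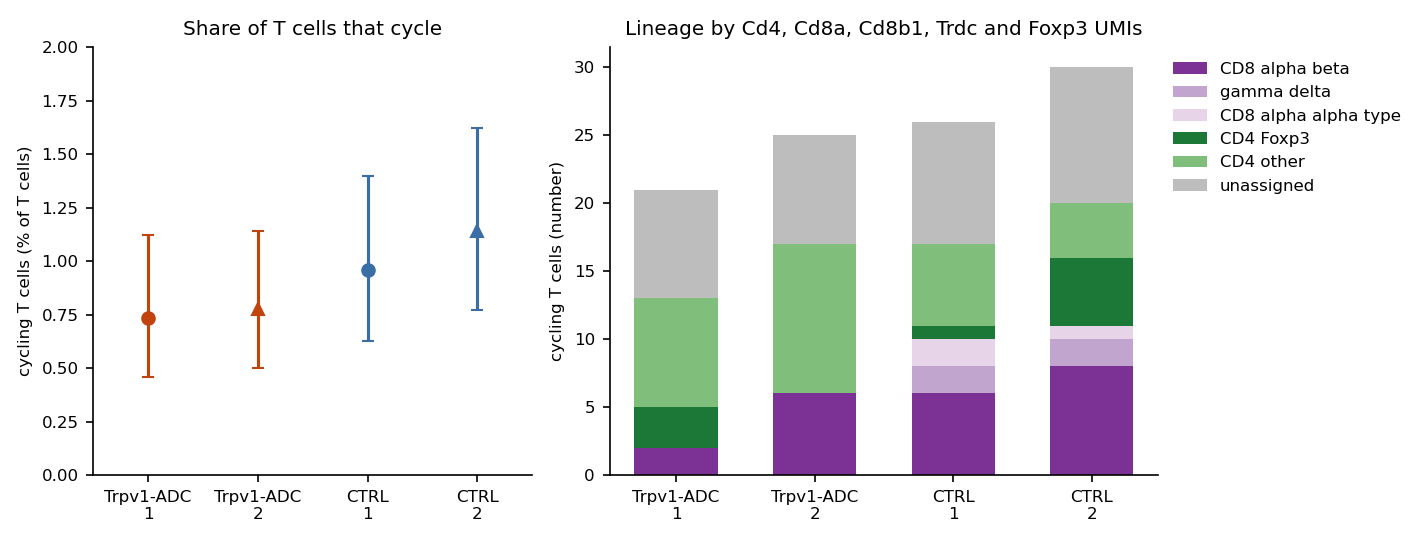
Left, cycling T cells as a percentage of T cells in each mouse with exact 95% binomial intervals, orange for Trpv1-ADC and blue for CTRL. Right, their number by lineage; CD4 cells without Foxp3 are 8 and 11 in Trpv1-ADC mice and 6 and 4 in CTRL mice, and gamma delta cells occur in CTRL mice alone (2 and 2).

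No single gene passed the test between the groups in cycling T cells. UMIs were summed per mouse and tested with the edgeR quasi-likelihood test, Benjamini-Hochberg adjusted over 6962 genes at 0.05. It called 0 genes (0%), with a lowest adjusted p of 0.120. At an unadjusted p under 0.05 stood 298 genes (4.28%), 130 higher and 168 lower in Trpv1-ADC mice, and DESeq2 called 3. On simulated counts the edgeR test called 3.39% of 2-fold and 38.6% of 4-fold changes. In sums over so few cells, fewer cells of a type and less RNA per cell cannot be told apart. In 32.9% of all tested genes the CPM of the groups did not overlap. The count turned on single mice: with CTRL 2 left out edgeR called 95 genes, with CTRL 1 left out 18, with Trpv1-ADC 2 left out 13 and with Trpv1-ADC 1 left out 0, where the lone mouse left in a group is taken to vary like the others.

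Genes of killing and of life in the gut lining leaned low in Trpv1-ADC mice. Of 23 cytotoxic and intraepithelial genes tested, 22 had a log2 fold change below 0, 14 of them at an unadjusted p under 0.05 (4.28% of all genes in either direction), and none passed the adjusted test. Their median log2 fold change was -1.29, against 0.02 over all genes. In other T cells of the same mice, the same list had a median of -0.69 with 10 of 27 genes called lower by edgeR at an adjusted p of 0.05, where 0.474% of 16669 genes were called.

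Ccl4, a chemokine of activated killer cells, stood at 36.8 and 10.6 CPM in Trpv1-ADC mice against 199 and 249 CPM in CTRL mice, a log2 fold change of -3.37 ± 0.47 (SE; edgeR adjusted p = 0.120). Its 17 UMIs in Trpv1-ADC mice came from 4 cells and its 225 in CTRL mice from 10. Of the 137 UMIs in CTRL 2, 1 cell held 134. Gzma, granzyme A, was at 6.70 and 47.9 CPM in Trpv1-ADC mice against 826 and 349 CPM in CTRL mice, and Gzmb, granzyme B, at 3.35 and 40.8 CPM in Trpv1-ADC mice against 124 and 162 CPM in CTRL mice. Neither pair overlapped, and Gzma came from 5 and 9 cells. Ccl3, a related chemokine, was at 3.35 and 5.32 CPM in Trpv1-ADC mice and 27.2 and 67.3 CPM in CTRL mice. Serpinb6b, an inhibitor of granzymes, and Ctsw, a protease of killer cells, rested on more cells, 15 in Trpv1-ADC mice against 31 and 28 in CTRL mice. Serpinb6b had 26.8 and 37.2 CPM in Trpv1-ADC mice against 124 and 74.6 CPM in CTRL mice, and Ctsw 33.5 and 30.1 CPM against 86.0 and 76.4 CPM. Their log2 fold changes were -1.56 ± 0.40 and -1.34 ± 0.36 (edgeR adjusted p = 0.676 for both).

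Immediate early genes, which answer to stimulation, leaned low in Trpv1-ADC mice without passing the test. All 17 tested had a log2 fold change below 0, where 3333 of all 6962 genes did, and 4 of them had an unadjusted p under 0.05 (4.28% of all genes), with a median of -0.46. Their summed level overlapped between the groups, at 3852 and 6909 CPM in Trpv1-ADC mice and 6795 and 8914 CPM in CTRL mice. In other T cells 13 of 18 lay below 0, with a median of -0.11. Junb, a subunit of the AP-1 factor, stood at 888 and 966 CPM in Trpv1-ADC mice against 1319.6 and 1530.0 CPM in CTRL mice, with UMIs in all 46 cells of Trpv1-ADC mice and 55 of 56 of CTRL mice. Nr4a1, induced by the T cell receptor, had 171 and 167 CPM in Trpv1-ADC mice and 292 and 300.2 CPM in CTRL mice, and Nr4a2, its relative, 144 and 172 CPM in Trpv1-ADC mice and 335 and 277 CPM in CTRL mice. The groups did not overlap in any of the 3, and their edgeR adjusted p values were 0.951, 0.835 and 0.738.

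Among genes of the cAMP response, the route through which several neuropeptide receptors signal, 13 of 15 lay below 0 with a median of -0.37, and 3 of them had an unadjusted p under 0.05 (4.28% of all genes). The same list in other T cells had 13 of 19 below 0, 7 of them at an unadjusted p under 0.05, with a median of -0.08. Of all 16669 genes tested in other T cells, 2039 had such a p, 1156 of them lower. Rgs1, a brake on chemokine receptors kept high in tissue-resident T cells, was the most even. It stood at 127 and 133 CPM in Trpv1-ADC mice against 371 and 491 CPM in CTRL mice, a log2 fold change of -1.71 ± 0.26 (edgeR adjusted p = 0.120), in 23 of 46 cells of Trpv1-ADC mice and 43 of 56 of CTRL mice. Other T cells held Rgs1 at 283 and 221 CPM in Trpv1-ADC mice and 463 and 556 CPM in CTRL mice, where edgeR gave -0.99 ± 0.15 (adjusted p = 0.102). Rgs2, of the same family, had 231 and 126 CPM in Trpv1-ADC mice and 484 and 382 CPM in CTRL mice. Calcrl, a subunit of the receptor for the neuropeptide CGRP, was on the other side, with 63.6 and 42.5 CPM in Trpv1-ADC mice and 24.9 and 21.8 CPM in CTRL mice (log2 fold change 1.16 ± 0.43, edgeR adjusted p = 0.999).

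Receptors for growth cytokines and homing receptors leaned the same way. Il2rb, the beta chain of the receptors for interleukins 2 and 15, stood at 121 and 119 CPM in Trpv1-ADC mice against 254 and 255 CPM in CTRL mice, a log2 fold change of -1.07 ± 0.25 (edgeR adjusted p = 0.591). Of 15 genes of this receptor family and of STAT5 signalling, 12 lay below 0 with a median of -0.33. Il7r had 90.4 and 63.8 CPM in Trpv1-ADC mice and 104 and 215 CPM in CTRL mice. Of 14 homing and retention genes, 10 lay below 0, 5 of them at an unadjusted p under 0.05 (4.28% of all genes), with a median of -0.59. Other T cells had 9 of 17 below 0, 7 of them at an unadjusted p under 0.05 and 2 called lower by edgeR, with a median of -0.04. Of all 16669 genes tested there, 1156 were lower at such a p and 69 were called lower.

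No gene of the cell cycle lists passed the test between the groups, and few had an unadjusted p under 0.05 (4.28% of all genes). Of 34 DNA replication genes, 31 had a log2 fold change below 0, 2 of them at an unadjusted p under 0.05, and the median was -0.31. Ccne2, the cyclin that starts S phase, stood at 13.4 and 17.7 CPM in Trpv1-ADC mice and 56.6 and 32.7 CPM in CTRL mice, and Gmnn, which stops DNA from being copied again, at 77.0 and 117 CPM in Trpv1-ADC mice and 190.1 and 151 CPM in CTRL mice. Of 52 mitosis genes, 33 lay above 0 with a median of 0.12, and 1 had an unadjusted p under 0.05. That gene, Ckap2l, a spindle protein, had 93.8 and 70.9 CPM in Trpv1-ADC mice and 43.0 and 50.9 CPM in CTRL mice. Among histones, Hist1h2ap stood at 2663 and 2887 CPM in Trpv1-ADC mice and 1374 and 2170.4 CPM in CTRL mice, and H2ac8 at 603 and 558 CPM in Trpv1-ADC mice and 179 and 408 CPM in CTRL mice. Without the 21 cells that held markers of other types, the replication list was level, with 16 of 31 genes above 0 and a median of 0.00470, and the mitosis list had 39 of 50 above 0 and a median of 0.32.

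Regulatory T cell genes showed no common direction, with 9 of 19 above 0 and a median of -0.06. Foxp3 stood at 60.3 and 16 CPM in Trpv1-ADC mice and 20.4 and 32.7 CPM in CTRL mice, which overlap. Batf, an AP-1 factor of tissue effector and regulatory T cells, had 255 and 138 CPM in Trpv1-ADC mice against 74.7 and 80.0 CPM in CTRL mice (log2 fold change 1.33 ± 0.33, edgeR adjusted p = 0.676), over 35 of 46 cells and 36 of 56. Il1rl1, the receptor for interleukin 33 and a mark of tissue regulatory T cells, was at 0 and 0 UMIs in Trpv1-ADC mice and 12 and 13 in CTRL mice, at least 7.25-fold lower when 3 counts over the whole group are taken as the floor. Those 25 UMIs came from 5 cells, and all 12 of CTRL 1 from 1 of them. That cell was among the 21 that held markers of other types, since Il1rl1 also stood in the list for natural killer and innate lymphoid cells. Without the 21 cells Il1rl1 no longer had enough counts to be tested between the groups.

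**Figure D5:**
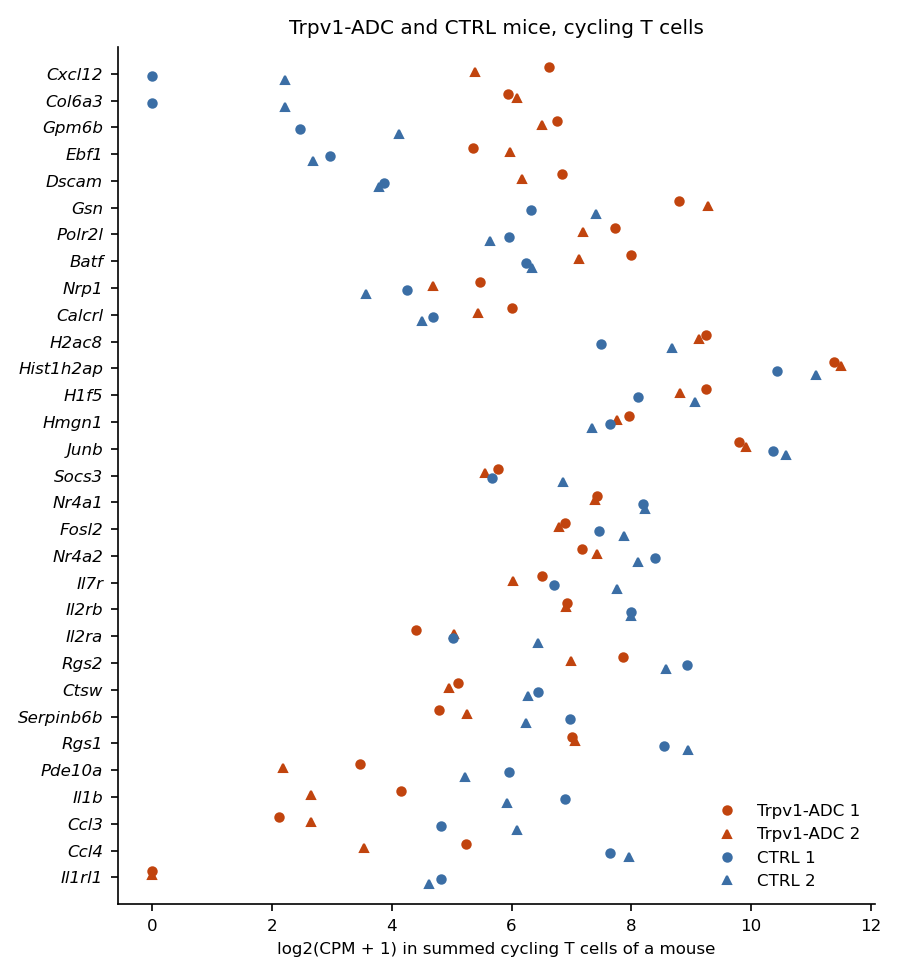
Log2 of CPM plus 1 in the summed cycling T cells of each mouse, orange for Trpv1-ADC and blue for CTRL, for genes with the smallest unadjusted p and up to 4 genes of each list described. Rgs1, Junb and Il2rb show mice of a group close together, while Col6a3 and Cxcl12 are at 0 in CTRL 1; none of these genes passed the adjusted edgeR test.

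Several genes with the highest values in Trpv1-ADC mice are not T cell genes and came from few cells. Col6a3, a collagen of fibroblasts, had 18 and 38 UMIs in Trpv1-ADC mice against 0 and 2 in CTRL mice, a ratio per UMI of 32.2 (8.50 to 272, counting error only), and 69.6% of the UMIs in Trpv1-ADC mice were in 3 cells. Cxcl12, a stromal chemokine, had 29 and 23 UMIs in Trpv1-ADC mice against 0 and 2 in CTRL mice, with 80.8% in 3 cells. Gsn, the actin-severing gelsolin, abundant in fibroblasts, had 442 and 624 CPM in Trpv1-ADC mice against 79.2 and 169 CPM in CTRL mice, a log2 fold change of 2.12 ± 0.38 (edgeR adjusted p = 0.344). Without the 21 cells it had -1.23 ± 0.52 (edgeR adjusted p = 0.556), and Col6a3 and Cxcl12 no longer had enough counts to be tested. Summed stromal and endothelial markers stood at 506 and 633 CPM in cycling T cells of Trpv1-ADC mice and at 190.1 and 511 CPM in those of CTRL mice, and epithelial markers at 16.7 and 1280 CPM in Trpv1-ADC mice and 22.6 and 1046 CPM in CTRL mice. Ebf1, a B cell and stromal factor (12 and 35 UMIs in Trpv1-ADC mice, 3 and 3 in CTRL mice), also came mostly from 3 cells, which held 87.2% of its UMIs in Trpv1-ADC mice.

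With those 21 cells removed, 81 remained, 16 and 19 in Trpv1-ADC mice and 21 and 25 in CTRL mice, and edgeR called 11 of 5527 genes (0.199%). This setting was chosen after the data had been seen. Of the 11, 9 were lower in Trpv1-ADC mice. Of killer and inflammatory genes these were Ccl4 (log2 fold change -4.50 ± 0.54, edgeR adjusted p = 0.00461), Il1b, a cytokine of myeloid cells (-3.82 ± 0.58, adjusted p = 0.00908), Klrd1, the CD94 chain of natural killer receptors (-2.88 ± 0.51, adjusted p = 0.0355), and Serpinb6b (-2.20 ± 0.43, adjusted p = 0.04998). The others were Rgs1 (edgeR log2 fold change -1.80 ± 0.33, adjusted p = 0.0431), Rgs2 (-1.44 ± 0.28, adjusted p = 0.0483), the immediate early factor Egr1 (-1.95 ± 0.39, adjusted p = 0.04998), Tent5a (-3.29 ± 0.53, adjusted p = 0.0127) and Dennd4a (-1.37 ± 0.25, adjusted p = 0.0359). Higher were Gpm6b, a membrane protein known from neurons and glia (4.68 ± 0.64, adjusted p = 0.00461), and Hist1h2an, a core histone (2.14 ± 0.40, adjusted p = 0.0431). Gpm6b had 32 and 51 UMIs in 19 cells of Trpv1-ADC mice against 2 and 9 UMIs in 4 cells of CTRL mice before any cell was removed. Of the 137 Ccl4 UMIs of CTRL 2 at that stage, 1 cell held 134. With all 102 cells Egr1 had -0.38 ± 1.46 (edgeR adjusted p = 0.999) and its groups overlapped, at 60.3 and 438 CPM in Trpv1-ADC mice and 129 and 559 CPM in CTRL mice. Klrd1 then had -1.36 ± 0.40 (edgeR adjusted p = 0.809), Tent5a -1.20 ± 0.42 (0.999), Hist1h2an 1.37 ± 0.34 (0.666) and Dennd4a -1.17 ± 0.30 (0.676).

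The cytotoxic and immediate early lists leaned as before in this setting. Of 23 cytotoxic genes, 22 lay below 0 with a median of -1.35 and 3 called lower, of 17 immediate early genes 17 lay below 0 with a median of -0.72 and 1 called lower, and of 10 T cell markers 10 lay above 0 with a median of 0.56 and none called. Over all 5527 genes the median was 0.02.

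Whether a group difference in cycling T cells itself differed from that in other T cells was tested as an interaction in edgeR, with the mouse as a term. It called 48 of 15964 genes (0.301%), 33 with a more positive and 15 with a more negative log2 fold change in cycling T cells, and 681 had an unadjusted p under 0.05. Most of the 33 rested on few cells: in 31 of them, 3 cells held over 50% of the UMIs of Trpv1-ADC mice, and 3 of the 33 were still called without the cells that held markers of other types. In 8 of the 15 lower, 3 cells held over 50% of the UMIs of CTRL mice. The median share in 3 cells was 65.7% for these 15 genes, against 81.25% for the 33. Of the 15 lower, 11 were still called without the cells that held markers of other types.

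Among those 15 were Trdc and Ccl4. Trdc, with 0 and 0 UMIs in Trpv1-ADC mice and 48 and 16 in CTRL mice, was at least 18.6-fold lower in cycling T cells of Trpv1-ADC mice, with the floor again at 3 counts. Of the 64 UMIs, 1 cell of CTRL mice held 26, and the bound was 8.37-fold without CTRL 1 and 31.2-fold without CTRL 2. In other T cells its log2 fold change was -0.84 ± 0.08 (edgeR adjusted p = 0.0122), with 33.6 and 30.9 CPM in Trpv1-ADC mice and 58.5 and 58.2 CPM in CTRL mice. The difference between the classes was -11.21, and -4.87 with up to 1 UMI of Cd79a and of Csf1r allowed. The interaction had an edgeR adjusted p of 5.63e-07, and from 4.76e-07 to 0.000888 over the alternatives that kept all mice. Within cycling T cells alone, Trdc did not pass the test between the groups (edgeR adjusted p = 0.958). The common coefficient of variation between mice was 0.270 in cycling and 0.101 in other T cells. The interaction fit used 0.195 for both, so it can understate the spread of cycling T cells. For Ccl4 the log2 fold changes were -3.37 in cycling and -0.70 ± 0.37 in other T cells, a difference of -2.78 ± 0.40 (edgeR adjusted p = 1.02e-08, from 7.97e-14 to 0.118 over the alternatives). Without Trpv1-ADC 2 the Ccl4 difference was -1.56, and 1 cell held 134 of the 137 Ccl4 UMIs of CTRL 2. Fcer1g, an adaptor chain of innate-type lymphocytes, had 6.70 and 23 CPM in Trpv1-ADC mice and 154 and 65.5 CPM in CTRL mice, and a difference of -1.79 ± 0.42 (edgeR adjusted p = 0.0129). It was lost without CTRL 1 (-1.14), without Trpv1-ADC 1 (-1.34) and without Scrublet calls (-1.28). It was also lost without the cells that held markers of other types (-2.11, edgeR adjusted p = 0.142). With up to 1 UMI of Cd79a and of Csf1r allowed it had -1.46 (edgeR adjusted p = 0.0534). Rgs2 had a difference of -1.14 ± 0.26 (edgeR adjusted p = 0.00960) over 34 and 50 cells, with -0.24 ± 0.06 in other T cells. Il7r had a difference of -1.18 ± 0.30 (edgeR adjusted p = 0.0317), with 0.11 ± 0.13 in other T cells, over 18 cells of Trpv1-ADC mice and 37 of CTRL mice. Rgs2 did not pass without CTRL 2 (-1.30), Trpv1-ADC 2 (-0.72) or CTRL 1 (-0.96), or without Scrublet calls (-0.80, edgeR adjusted p = 0.939). Nor did it with at least 2 UMIs of Mki67 and Top2a (-1.09, edgeR adjusted p = 0.0885). Il7r did not pass without CTRL 2 (-0.47) or Trpv1-ADC 2 (-1.11), or without Scrublet calls (-0.96, edgeR adjusted p = 0.670). Nor did it with at least 2 UMIs of Mki67 and Top2a (-1.11, edgeR adjusted p = 0.296) or a hashtag ratio of 5 (-0.85, 0.704). Without the low-count filter Il7r had -1.17 (edgeR adjusted p = 0.0593).

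On the positive side, H1f5 had a difference of 1.54 ± 0.32 (edgeR adjusted p = 0.00171), with 606 and 450.2 CPM in cycling T cells of Trpv1-ADC mice and 276 and 533 CPM in those of CTRL mice. Its own change in cycling T cells was 0.39 ± 0.32, and in other T cells, which hold little of it, -1.14 ± 0.26 (1.60 and 1.30 CPM in Trpv1-ADC mice, 3.56 and 2.92 CPM in CTRL mice). Without CTRL 1, where cycling T cells held the least H1f5, the difference was 0.94 (edgeR adjusted p = 1). Gpm6b had a difference of 2.82 ± 0.52 (edgeR adjusted p = 8.16e-05), and 4.27 without the cells that held markers of other types (adjusted p = 2.28e-06). Without CTRL 1 it was 2.40 and did not pass. Nor did Gpm6b with at least 2 UMIs of Mki67 and Top2a (2.12, edgeR adjusted p = 0.0954). Rgs1, low in both classes of T cells in Trpv1-ADC mice, had a difference of -0.73 ± 0.27 that did not pass (edgeR adjusted p = 0.621), and no member of the DNA replication or mitosis lists passed.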

How the data were processed

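The authors deposited 1 unnormalized matrix with UMI counts of genes and counts of hashtags, whose values are whole numbers. Per the submitters' processing notes, Cell Ranger, Seurat and mm10 were used, and versions are not given in the sources used here. The files held 23063 barcodes and 174231251 UMIs. Barcodes with at least 500 UMIs, at most 10% mitochondrial UMIs and a top hashtag count of at least 10 and at least 3 times the next were assigned to a mouse (hashtags 7 and 9 for Trpv1-ADC 1 and 2, 1 and 3 for CTRL 1 and 2), which left 19571. Doublets were not removed in the main analysis. Scrublet (scanpy 1.11.5, expected rate 0.2, score threshold 0.367), which called 11.1% of assigned cells, was an alternative.

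Counts were summed per mouse over cycling T cells and over other T cells and tested with edgeR 4.0.16 (quasi-likelihood, TMM, its low-count filter) in R 4.3.3, with an adjusted p threshold of 0.05. DESeq2 1.42.0 was an alternative. The interaction fit held both sums of each mouse with the mouse as a term. On simulated counts with dispersion following the trend, the group fit called 3.39% of 2-fold and 38.6% of 4-fold changes. The interaction fit called 3.03% and 28.1%, and neither called an unchanged gene. With gene-wise dispersion, the group fit called 11 of 6281 unchanged genes beside 29 of 56 4-fold changes. The interaction fit then called 12 of 15279 unchanged genes beside 12 of 64 4-fold changes. Single values were compared over 4 mice by exact permutation in scipy 1.17.1. Nothing in the labels says that animals were handled apart from the shared run, so p-values measure the spread between these 4 mice. The interaction fit takes 1 such spread per gene for both classes of T cells. Levels are counts per 1000000 summed UMIs (CPM).

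The cells, gene lists and lineage genes were chosen with earlier results of these data known. Genes were named by rule: between the groups, the 10 smallest unadjusted p where fewer than 10 genes passed, and up to 4 genes per described list; for the interaction, the 5 largest differences each way; for cycling against other T cells, the 20 highest and 10 lowest ratios and list members. The interaction values of Fcer1g, Rgs2, Il7r, H1f5, Gpm6b and Rgs1, and the Trdc and Cd8a shares, were added after their values were seen. The group values of Gzma, Gzmb and Foxp3 in cycling T cells were given outside these rules. Mice that share a number are different animals, so numbers were not taken as pairs.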

Additional observations from a re-analysis of the deposited data

Results flagged for a closer look

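The change between Trpv1-ADC and CTRL mice differed between cycling and other T cells in 48 genes (edgeR interaction test). Differences of log2 fold change against a group at 0 depend on the prior count of the fit and are no bounds. The 5 most positive were Grm7, a glutamate receptor (10.41), Col6a3 (5.62), Cxcl12 (5.56), Cryab, a small heat shock protein (5.27), and Ccl11, the chemokine eotaxin (4.66). Grm7 had 0 and 11 UMIs in 3 cells of Trpv1-ADC mice and 0 and 0 in CTRL mice, at least 4.21-fold higher, and all 11 UMIs were of Trpv1-ADC 2. Cryab had 2 and 31 UMIs in Trpv1-ADC mice against 0 and 1 in CTRL mice, and Ccl11 2 and 27 against 0 and 2. Without the cells that held markers of other types, the adjusted edgeR p of all 5 was 1, and the differences were -0.0673 for Grm7, 6.83 for Col6a3, 8.68 for Cxcl12, 1.42 for Cryab and 0.14 for Ccl11.

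The 5 most negative were Il12b, a chain of interleukin 12 (-14.48), Trdc (-11.21), Cd163l1, a gene of gamma delta T cells (-10.42), the pseudogene Olfr1369-ps1 (-3.24) and Ccl4 (-2.78). Il12b had 0 and 0 UMIs in Trpv1-ADC mice and 7 and 64 in CTRL mice, 64 of them in 1 cell, and was at least 20.6-fold lower (4.56-fold without CTRL 2, 33.5-fold without CTRL 1). Cd163l1 had 0 and 0 UMIs in Trpv1-ADC mice and 15 and 7 in 3 cells of CTRL mice, at least 6.38-fold lower (3.66-fold without CTRL 1, 9.76-fold without CTRL 2). Olfr1369-ps1 had 0 and 2 UMIs in Trpv1-ADC mice and 2 and 22 in CTRL mice, 20 of them in 1 cell.

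Outside the main measurement, the 11 hashtags tied to no mouse held 22446 counts, 0.127% of all hashtag counts, most of them on tags 4, 6 and 2, while tags 14 and 15 held 0.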

How the results depend on the processing

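In cycling T cells, where edgeR called 0 genes between Trpv1-ADC and CTRL mice, it called 64 without the low-count filter, 20 with a replicate block, 2 without Scrublet calls, 11 without cells that held 10 or more marker UMIs of another type, 1 with up to 1 UMI of Cd79a and Csf1r allowed, and 0 to 95 with 1 mouse left out; DESeq2 called 3. The last cell choices were added after the data had been seen. The block was not used as a result: deviations of same-numbered mice correlated at 0.351 over 6962 genes, but only 2 pairs of different animals exist. The interaction count of 48 became 19 with at least 2 UMIs of Mki67 and Top2a, 20 without Scrublet calls and 27 to 89 with 1 mouse left out. The Gsn change turned to -0.00912 without Scrublet calls and -1.23 without other-type cells, and the Grm7 interaction to -0.0673 there as well. The CD4 Foxp3 difference of -3.11 percentage points became 0 with a stricter hashtag ratio of 5, 5.56 in thinned cells, 0.337 with the looser Cd79a and Csf1r limit and -10.3 to 4.03 with 1 mouse left out. The CD4 difference of 22.8 points became -2.78 in thinned cells. The unassigned difference of 1.07 became -2.93 with at least 2 UMIs of Mki67 and Top2a, -7.39 without other-type cells, -3.20 with the looser limit and -1.97 to 4.12 with 1 mouse left out. The cause was not tested for any of these. The share of T cells that cycled kept its direction under every alternative run, from -0.383 to -0.143 percentage points. For the share of all assigned cells, the groups overlapped under several alternatives, as given above. No share was run with all 44 cells kept out by Cd79a or Csf1r, with which the counts were 35 and 38 in both groups. Tests within a lineage were not run, since some mice had fewer than 20 cells. With 21 to 30 cells a mouse, depth limits every gene of low level.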

Other observations

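Glycolysis genes leaned higher in cycling T cells of Trpv1-ADC mice than of CTRL mice, with 13 of 18 above 0 (3629 of all 6962 genes were). Of the 13, 4 had an unadjusted p under 0.05 (4.28% of all genes), and the list had a median log2 fold change of 0.25 (edgeR; none passed the adjusted test). In other T cells 12 of 18 lay above 0 with a median of 0.05. All 10 T cell markers outside the choice of cells lay above 0 in cycling T cells, 3 of them at an unadjusted p under 0.05, with a median of 0.36, and 9 of 10 did in other T cells, with a median of 0.07. Of 80 ribosomal protein genes, 75 lay above 0 with a median of 0.13 and none had an unadjusted p under 0.05. Other T cells had 83 of 85 above 0, 11 of them at an unadjusted p under 0.05, with a median of 0.10. Of all 16669 genes tested in other T cells, 2039 had such a p, 883 of them higher. All 7 type 3 genes, those of interleukin 17 producing cells, lay below 0 with a median of -0.44. In other T cells 10 of 13 did, with a median of -0.18. Of these, 2 were called lower by edgeR, where 69 of all 16669 genes were. None of these lists held a gene that passed the adjusted edgeR test between the groups in cycling T cells.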
